A study of Mus musculus with 18 samples.

Results

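The RNAs of 9 cytoskeletal scaffold genes were followed through 18 RNA-seq libraries of mouse hippocampus: the spectrins Sptan1, Sptb and Sptbn1, the ankyrins Ank2 and Ank3, and the actin and myosin scaffold genes Ppp1r9a, Dbn1, Myh10 and Myo5a. In the AAV control and PBS groups Sptan1 and Ppp1r9a RNA stood among the 4 most enriched of all tested genes in the pulldown of tagged ribosomes. After kainic acid (KA) all 9 RNAs were lower in this pulldown than in AAV controls, by 1.76-fold (Myh10) to 6.13-fold (Sptb). In whole hippocampal RNA the differences were smaller, at most 1.66-fold (Sptb, against PBS). There, 1 of the 9 genes was lower by the test against AAV controls (Dbn1), beside 0.944% of all genes. Against PBS 3 were lower (Sptb, Sptbn1 and Ppp1r9a), beside 12.2% of all genes, and Dbn1 was not called. The 9 symbols were among 55291 in the files, and all 9 passed the filter on low values (FPKM above 1 in every compared library) in every comparison. They were chosen on values of these same libraries, since spectrin RNAs are enriched in the immunoprecipitate (IP) and lower there after KA, with no numeric threshold. IP enrichment, the KA difference in the IP and the difference between the KA effects in IP and input are therefore given as descriptions without a test, and tests are given for the input libraries and for PBS against AAV control.

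All mice were male wild-type C57BL/6J, injected at 6 weeks of age in the right CA3 with AAVDJ-GfaABC1D-EGFP-Rpl10a, a virus that expresses an EGFP-tagged ribosomal protein from an astrocyte promoter. The AAV control group received only the virus and was collected 2 weeks later. The KA group received 50 nL of 20 mM KA in the right dentate gyrus 2 weeks after the virus and was collected 14 days after KA, and the PBS group received PBS in place of KA. Each sample pooled 3 to 4 hippocampi into 1 homogenate, from which an input library (RNA of all cells) and an IP library (RNA pulled down with the EGFP-tagged ribosomes) were made, giving 3 libraries in each of 6 groups. Age and time after surgery differ between KA and AAV control, and for PBS the interval is not given in the sources used here. Sequencing run 1 held homogenates #1 and #2 of both KA and AAV control, run 2 held their homogenates #3, and run 3 held PBS alone, so that PBS and run cannot be told apart.

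Spectrins are long rods made of alpha and beta chains that pair head to tail and cross-link short actin filaments into a lattice under the plasma membrane. Ankyrins tie this lattice to membrane proteins such as ion pumps, ion channels and adhesion molecules. Drebrin and neurabin bind actin filaments, and non-muscle myosin II and myosin V pull on them or carry cargo along them. These proteins are best known from neurons, where spectrin and ankyrin build the axonal lattice and drebrin and neurabin sit in dendritic spines, and spectrin is a classic substrate of calpain proteases after excitotoxic injury.

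Coordinates are those of GENCODE on GRCm38, the build of the files (mm10). Sptan1, the alpha chain of non-erythroid spectrin, lies at chr2:29965560-30031451 on the plus strand. Sptb, the beta chain first known from red blood cells, lies at chr12:76580488-76710547 on the minus strand, and Sptbn1, the common non-erythroid beta chain, at chr11:30099395-30268175 on the minus strand. Ppp1r9a, which encodes neurabin, an actin-binding anchor of protein phosphatase 1, lies at chr6:4902917-5165661 on the plus strand. Dbn1, which encodes the actin-binding protein drebrin, lies at chr13:55473429-55488111 on the minus strand. Myh10, the heavy chain of non-muscle myosin IIB, lies at chr11:68691559-68816632 and Myo5a, the heavy chain of the cargo motor myosin Va, at chr9:75071015-75223688, both on the plus strand. Ank2 (ankyrin-B) spans chr3:126921612-127499350 on the minus strand and Ank3 (ankyrin-G) chr10:69398773-70027438 on the plus strand. The exon lengths implied by the ratio of counts to FPKM ran from 4511 bases (Dbn1) to 35487 bases (Ank2) and came to 99.9% to 101.4% of the annotated exons. Reads that spectrin paralogs share could be split between them, since the handling of multi-mapped reads is not given in the sources used here. Of the annotated genes that overlap the exons of a member, none had over 157 counts in a library (Plekhg3, which shares 1 base with Sptb).

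A transcript start region of each of the 3 spectrin genes is shown because these genes gave the choice of the set its reason and move together in the libraries below. RefSeq holds a window from 250 bases before to 50 bases after a transcript start for 8 of the 9 genes, with 13 windows in all (build GRCm38.p6), and Ank3 has none in the table used. The letters GGGCGG, a GC box, searched on both strands, are in capitals:
Sptan1, chr2:29965310-29965609, plus strand: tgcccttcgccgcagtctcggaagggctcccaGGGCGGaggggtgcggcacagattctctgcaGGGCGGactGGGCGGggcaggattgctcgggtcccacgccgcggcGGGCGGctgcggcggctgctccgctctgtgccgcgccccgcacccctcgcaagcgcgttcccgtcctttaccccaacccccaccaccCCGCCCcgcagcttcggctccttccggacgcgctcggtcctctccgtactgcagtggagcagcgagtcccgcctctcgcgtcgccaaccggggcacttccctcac
Sptb, chr12:76710498-76710797, minus strand: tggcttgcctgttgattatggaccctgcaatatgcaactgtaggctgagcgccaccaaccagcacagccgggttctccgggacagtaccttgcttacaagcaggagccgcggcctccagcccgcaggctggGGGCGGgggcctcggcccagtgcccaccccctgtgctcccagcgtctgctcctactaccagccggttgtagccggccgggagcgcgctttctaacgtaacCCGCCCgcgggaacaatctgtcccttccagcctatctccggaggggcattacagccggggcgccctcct
Sptbn1, chr11:30198208-30198507, minus strand: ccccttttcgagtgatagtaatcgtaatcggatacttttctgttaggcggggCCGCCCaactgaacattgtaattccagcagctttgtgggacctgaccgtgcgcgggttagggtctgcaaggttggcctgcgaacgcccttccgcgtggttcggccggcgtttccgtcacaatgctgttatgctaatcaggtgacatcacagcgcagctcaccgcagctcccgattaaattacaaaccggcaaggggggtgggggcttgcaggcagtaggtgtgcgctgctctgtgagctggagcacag
The Sptan1 window holds 5 GC boxes, the Sptb window 2 and this Sptbn1 window 1, while the other Sptbn1 window (chr11:30219723-30220022) holds 0. Both Sptbn1 windows lie inside the annotated gene, whose own start at chr11:30268175 has no window here. GC boxes occurred in 7 of the 13 windows of the set and in 35.7% of all 32851 promoter windows. The Sptan1 window is 73.3% G or C with 37 CpG pairs and the Sptb window 65.7% with 21, against a median of 52.7% and 7 over all windows. The letters TATAA were found in 1 of the 13 windows, of Ank2, and in 24.9% of all windows, and CCAAT in 3 of the 13 (3 sites in Myh10 and 1 in each of 2 Ank2 windows) and in 37.4% of all. These matches describe the letters of the windows only.

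Library totals ranged from 7991681 to 16032180 counts (median 10313125), and a member had between 158 counts (Sptb in a KA input library) and 55714 counts (Sptbn1 in a PBS IP library). The label hippocampal astrocyte was checked against markers in the IP. All 7 astrocyte markers were above FPKM 1 in each group, and their geometric mean IP to input ratio was 9.11 ± 1.32 in AAV control, 7.99 ± 1.72 in PBS and 3.46 ± 0.132 in KA (SD, n = 3 homogenates). The 7 neuron markers had ratios of 0.163 ± 0.00655, 0.205 ± 0.0580 and 0.411 ± 0.0425. The 5 oligodendrocyte markers had ratios of 0.657 ± 0.464, 0.646 ± 0.333 and 2.28 ± 0.578. The input holds RNA of all cells, whatever its label, and the IP libraries of KA held more RNA of neuron and oligodendrocyte markers relative to input than those of the controls.

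Sptan1 was the most IP-enriched RNA of the 9961 tested in AAV control. Its level was 188.5, 235.4 and 320.9 FPKM (reads scaled to exon length and library total) in the IP libraries #1, #2 and #3, and 11.96, 11.15 and 9.316 in the inputs of the same homogenates. The ratio within homogenates was 23.8 ± 9.62 (SD, n = 3) and the fitted log2 difference 4.70 (SE 0.332). The IP and input values were far apart in every homogenate, and the spread between homogenates came to more than a factor of 2 (15.8 to 34.4). In PBS the ratio was 19.95 ± 9.71, place 3 of 10401, and Sptan1 alone took between 0.144% and 0.521% of the counts of a PBS IP library.

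Ppp1r9a, the neurabin gene, came next. Its IP levels in AAV control were 117.1, 157.3 and 82.14 FPKM against 6.678, 5.759 and 3.397 in input, a ratio of 23.0 ± 4.99. In PBS the ratio was 19.7 ± 13.9, carried by library #3 with 35.6 against 12.8 and 10.6 in the others. It took place 2 of 9961 in AAV control and place 4 of 10401 in PBS.

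The beta spectrins followed. Sptbn1 had IP levels of 175.8, 151.2 and 102.5 FPKM in AAV control against 12.93, 11.48 and 7.716 in input, and its ratio hardly varied there (13.4 ± 0.217). In PBS the ratio of Sptbn1 spread from 5.50 to 22.4. Sptb, a much rarer RNA, had 21.89, 20.15 and 31.65 FPKM in the IP and 2.505, 2.776 and 2.958 in the input, a ratio of 8.90 ± 1.73. The 7 erythroid markers had an IP to input ratio of 0.184 ± 0.0429 in AAV control, where 4 of the 7 were above FPKM 1 in the IP. The part of blood RNA in the Sptb values was not tested.

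Dbn1 had IP levels of 128.2, 180.8 and 195.8 FPKM in AAV control against 23.35, 21.83 and 19.83 in input, a ratio of 7.88 ± 2.22, and it was the most abundant member in the input of each group. The ankyrins and myosins were less enriched, with ratios in AAV control of 4.88 ± 0.380 for Ank2, 3.29 ± 0.702 for Myh10, 2.25 ± 0.586 for Myo5a and 1.79 ± 0.314 for Ank3. Over the 9 members the median log2 difference between IP and input was 3.12 in AAV control, 3.01 in PBS and 1.42 in KA, beside medians over all tested genes of 0.01, 0.04 and 0.01. The IP and input values did not overlap for 8 of 9 members in AAV control, for 9 in PBS and for 8 in KA, with Ank3 the exception in AAV control and KA, where 19.9%, 23.8% and 14.6% of all tested genes were higher in the IP without overlap. These shares stand beside contrasts that chose the members, and nothing is read from the difference.

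**Figure D1:**
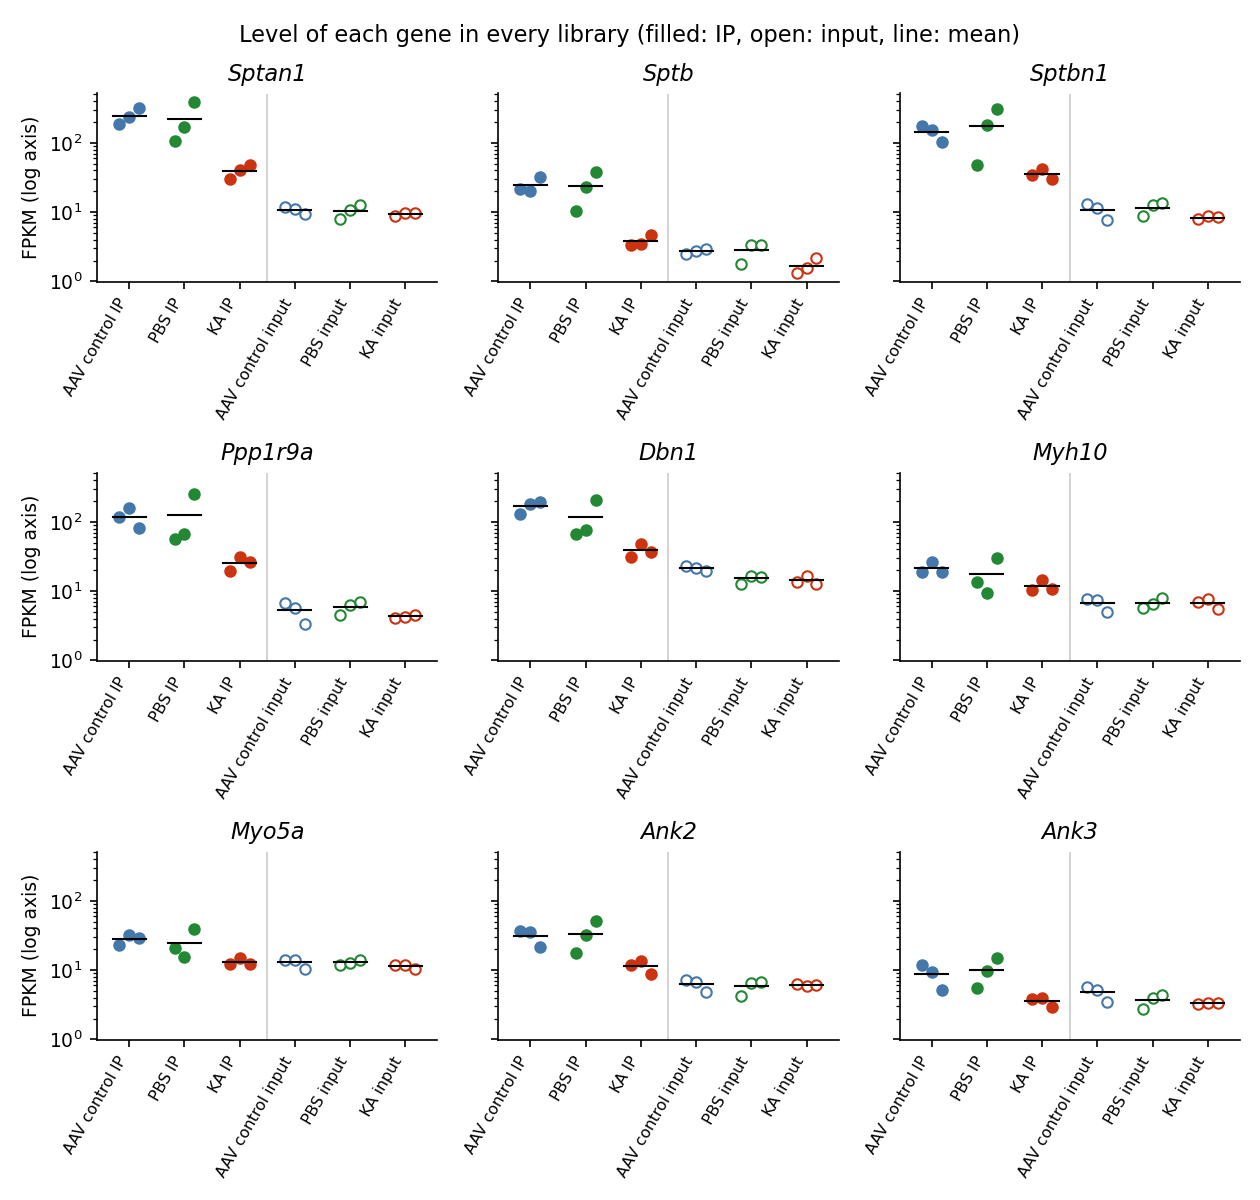
Level of each of the 9 genes in FPKM (log axis) in the 3 IP (filled) and 3 input (open) libraries of AAV control, PBS and KA, with the mean as a line. The KA IP points of Sptan1 lie between 30.07 and 47.18, below all AAV control and PBS IP points, while the input points of the 3 conditions lie between 8.025 and 12.49.

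After KA, Sptan1 in the IP was at 30.07, 40.82 and 47.18 FPKM, and in the PBS IP at 106.9, 167.5 and 388.3. All 3 KA libraries lay below all 6 control libraries. The log2 difference was -2.60 (SE 0.352) against AAV control, a 6.08-fold lower level, and -2.43 (SE 0.457) against PBS.

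Sptb was at 3.409, 3.486 and 4.694 FPKM in the KA IP against 10.24, 22.78 and 37.81 in the PBS IP, again with no overlap with either control. Its log2 difference was -2.62 (SE 0.306) against AAV control and -2.57 (SE 0.394) against PBS, places 10 and 35 from the lowest of 9729 and 9847 genes. These places are a description, since these contrasts chose the set. Sptbn1 was at 34.21, 41.83 and 29.90 FPKM in the KA IP and at 47.79, 180.4 and 303.4 in the PBS IP, with log2 differences of -1.96 (SE 0.246) and -2.31 (SE 0.538). The PBS IP library #1 of Sptbn1 stood close above the highest KA library.

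Of the actin-bound scaffold genes, Ppp1r9a was at 19.33, 31.08 and 26.01 FPKM in the KA IP and at 57.16, 67.63 and 249.1 in the PBS IP. Its log2 difference was -2.14 (SE 0.295) against AAV control and -2.22 (SE 0.493) against PBS. Dbn1 was at 30.92, 48.45 and 36.56 FPKM in the KA IP and at 67.31, 76.34 and 209.7 in the PBS IP, and differed by -2.08 (SE 0.279) and -1.56 (SE 0.372). Both genes were below every control library.

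The ankyrins and myosins differed less. Ank2 differed by -1.38 (SE 0.235) against AAV control and -1.55 (SE 0.352) against PBS on the log2 scale, and Ank3 by -1.23 (SE 0.264) and -1.47 (SE 0.298). Myo5a differed by -1.04 (SE 0.204) and -0.87 (SE 0.274). Myh10 had the smallest differences, -0.82 (SE 0.205) and -0.54 (SE 0.319). Its KA IP levels of 10.26, 14.38 and 10.77 FPKM overlapped the PBS levels of 13.70, 9.451 and 30.38. The groups did not overlap for 9 of 9 members against AAV control, where 20.2% of all tested genes were lower without overlap, and for 8 of 9 against PBS (23.3%), a description since this contrast chose the members.

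The difference was present in both sequencing runs that held KA and AAV control, a description since libraries of both runs entered the choice of the members. In run 1 the mean AAV control IP level was between 1.86 (Myh10) and 6.10 (Sptb) times the KA level, and in run 2, with 1 library a group, between 1.75 (Ank3) and 6.80 (Sptan1) times. Together the 9 RNAs took 1.07% ± 0.0717 of the AAV control IP counts, 1.08% ± 0.719 of the PBS IP counts and 0.258% ± 0.0349 of the KA IP counts (SD, n = 3). In the inputs these shares were 0.119% ± 0.0227, 0.113% ± 0.0215 and 0.0990% ± 0.00270.

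**Figure D2:**
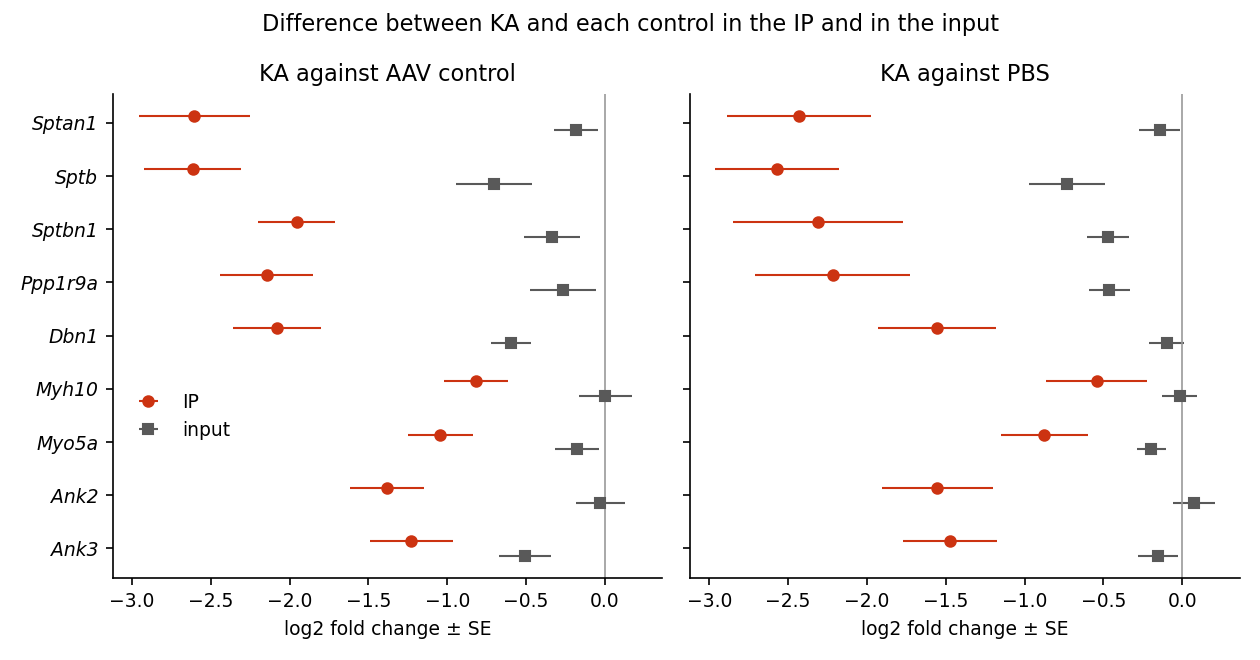
Log2 fold change of KA against AAV control (left) and against PBS (right) for each of the 9 genes, in the IP (circles) and the input (squares), with standard errors. In the IP all points lie below 0, from -0.54 (Myh10, against PBS) to -2.62 (Sptb, against AAV control), while in the input they lie between -0.73 and 0.07.

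The IP to input ratio was lower in KA than in both controls, by its mean, for every member. The ratio of Sptan1 was 3.42, 4.21 and 4.79 in the KA homogenates, a mean of 4.14 ± 0.687 against 23.8 in AAV control and 19.95 in PBS. Ppp1r9a kept the highest ratio of the set after KA (5.91 ± 1.28), followed by Sptbn1 (4.22 ± 0.658). Myo5a and Ank3 were near 1, at 1.17 ± 0.112 and 1.08 ± 0.171. The fitted log2 KA effect in the IP minus that in the input was -2.41 (SE 0.385) for Sptan1 and -1.90 (SE 0.403) for Sptb with the AAV control baseline, and between -0.70 (Ank3) and -1.85 (Ppp1r9a) for the others. With PBS as the baseline the values ran from -0.52 (Myh10) to -2.28 (Sptan1). Both baselines share the KA libraries.

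**Figure D3:**
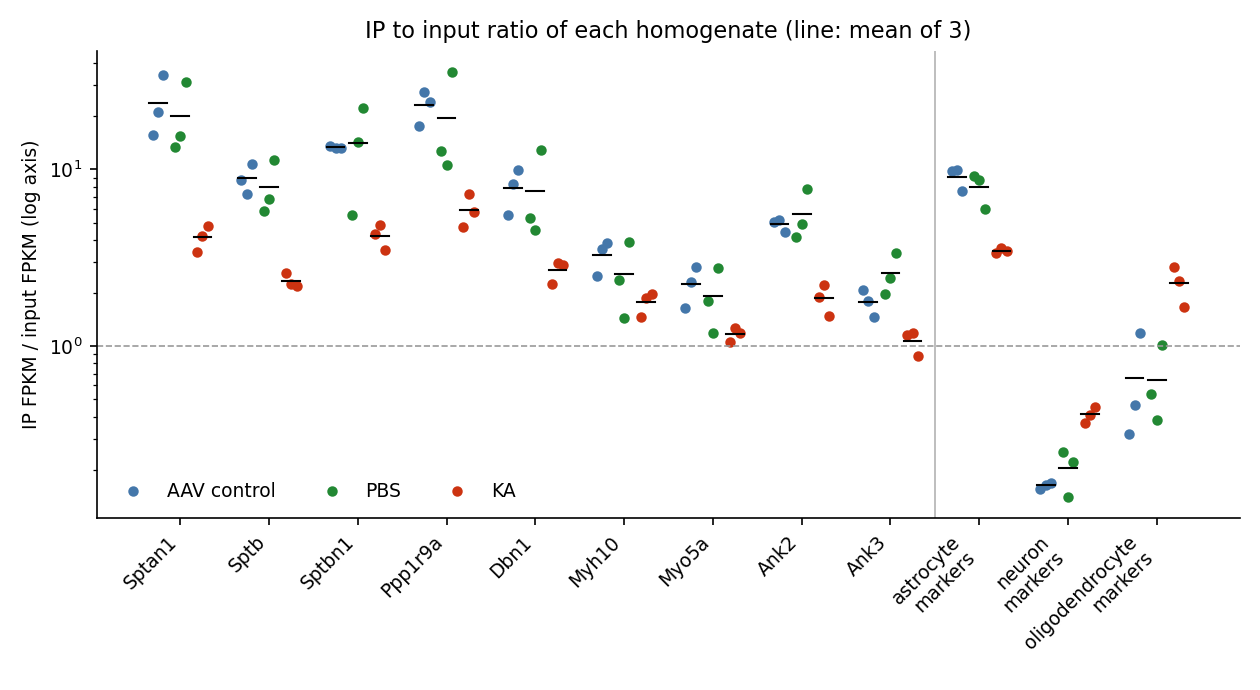
IP to input ratio of FPKM (log axis) in each of the 3 homogenates of AAV control, PBS and KA for the 9 genes and for the geometric mean of 3 marker lists, with the mean as a line. KA points of Sptan1 (3.42 to 4.79) lie below all control points (13.3 to 34.4). The mean ratio of the astrocyte markers is also lower in KA (3.46 against 9.11 in AAV control).

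Lower IP levels after KA were common among IP-enriched RNAs. Over genes outside the set, grouped by their log2 IP to input difference in PBS, whose libraries enter neither KA nor AAV control values, the median log2 KA difference against AAV control in the IP was 0.65 below -1 (1157 genes), 0.16 from -1 to 0, -0.20 from 0 to 1, -0.56 from 1 to 2 (965 genes), -0.83 from 2 to 3 (359 genes) and -0.69 from 3 upward (77 genes). In the input the same groups had medians of -0.17, -0.05, 0.00, 0.15, 0.41 and 0.64. Within the most enriched group, 2 of the 77 other genes lay below Sptan1 and below Sptb, 3 below Ppp1r9a, 6 below Dbn1 and 7 below Sptbn1. Of the 359 genes in the group of Ank2, 89 lay below it. Of the 965 in that of the remaining members, 326 lay below Myh10, 187 below Myo5a and 111 below Ank3. The set was chosen for IP enrichment and lower KA IP values, so low places were favoured by the choice. They are given as a description. Fewer tagged astrocytes, less RNA per astrocyte and a larger share of RNA of other cells in the IP cannot be told apart in these bulk samples. The astrocyte marker ratio was also lower in KA, with other values behind it. Against AAV control these markers had a median log2 KA difference of -0.47 in the IP (3 of 7 lower, 2 higher) and 0.84 in the input. The members had medians of -1.96 in the IP and -0.27 in the input. The part of the marker ratio in the result was not tested.

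**Figure D4:**
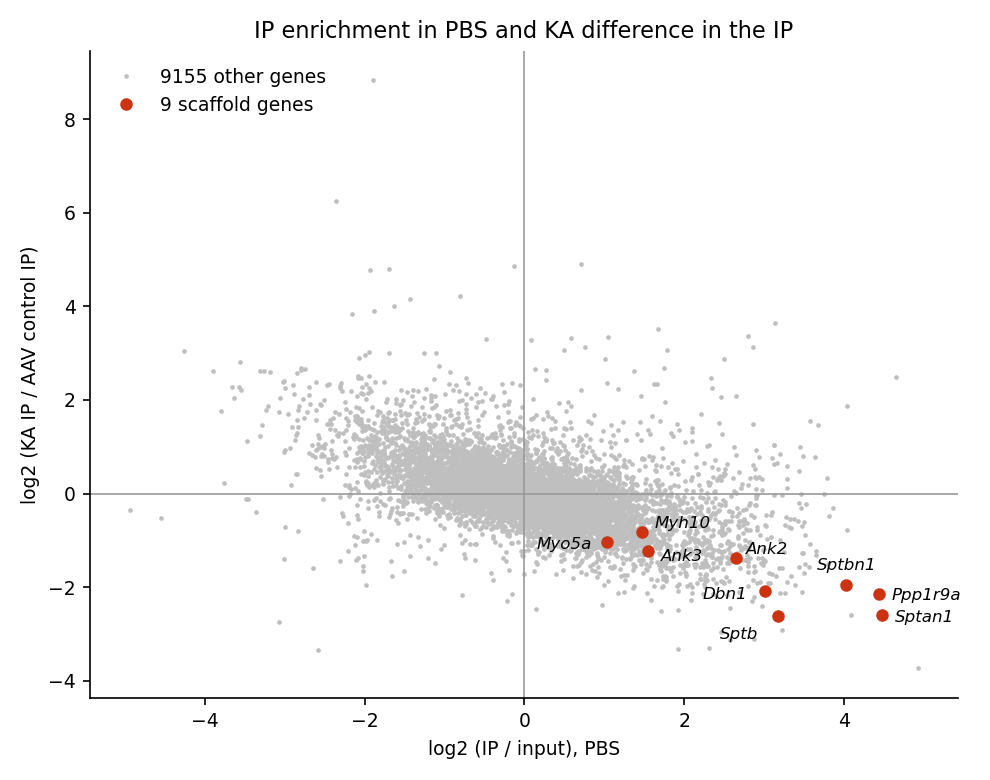
Each point is a gene: the log2 ratio of IP to input in PBS (horizontal axis) against the log2 ratio of KA IP to AAV control IP (vertical axis), 2 values that share no library. The 9 scaffold genes (red) lie among the IP-enriched genes below 0, with Sptan1 at 4.48 and -2.60, at the lower right edge of 9155 other genes (grey). The set was chosen for IP enrichment and lower KA IP values.

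In whole hippocampal RNA, Dbn1 was the member called lower in KA than in AAV control. Its input levels were 23.35, 21.83 and 19.83 FPKM in AAV control and 13.75, 16.46 and 12.78 in KA, which did not overlap. The PBS inputs, without KA, were at 12.68, 16.78 and 16.25 FPKM, also below every AAV control library. The call is therefore not particular to KA. The log2 fold change was -0.59 (SE 0.126, adjusted p = 0.0399, edgeR quasi-likelihood test with Benjamini-Hochberg adjustment over 10809 genes). Sptb, with 1.319, 1.547 and 2.156 FPKM in KA, differed by -0.70 (SE 0.240, adjusted p = 0.168), and Ank3, with 3.269, 3.320 and 3.353, by -0.51 (SE 0.165, adjusted p = 0.151). Both were below every AAV control library without passing the test. The groups did not overlap for 3 of 9 members, beside 10.4% of all tested genes that were lower without overlap. Of all tested genes 0.944% were lower and 3.54% higher at an adjusted p under 0.05, against 1 and 0 of the 9 members. Sptan1 differed by -0.18 (SE 0.140) and Sptbn1 by -0.34 (SE 0.177). Ppp1r9a differed by -0.27 (SE 0.210), Myo5a by -0.17 (SE 0.140) and Ank2 by -0.03 (SE 0.157). Myh10 differed by 0.00 (SE 0.166). None of these 6 values passed the test.

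This count rests on single libraries. AAV control input #3 was the lowest of its group for 8 of 9 members, and without it 4 members were called lower (Ank3, Dbn1, Ppp1r9a and Sptbn1), beside 11.0% of all genes. Without any 1 of the other 5 libraries 0 members were called, beside 0.0278% to 0.694% of all genes. With the replicate number, which also follows the run, as a block, 2 members were called lower, Dbn1 (-0.60) and Sptb (-0.73), beside 3.42% of all genes. With the run as a covariate 3 were called (also Ank3), beside 6.43%, and within run 1 alone 8, all but Myh10, beside 22.0%. In run 1 the mean AAV control input level was 1.03 to 1.84 times that of KA, and in run 2 it was 0.755 to 1.55 times, above 1 for 4 of 9 members in both runs.

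Against PBS, 3 members fell in the input by the same test over 10849 genes. Sptb, at 1.762, 3.343 and 3.327 FPKM in PBS, was lower in KA by 0.73 on the log2 scale (SE 0.242, adjusted p = 0.0452), although PBS library #1 lay within the KA range. Sptbn1, at 8.694, 12.60 and 13.57 FPKM in PBS and 7.913, 8.670 and 8.494 in KA, had a log2 fold change of -0.47 (SE 0.133, adjusted p = 0.0234). Ppp1r9a, at 4.479, 6.370 and 6.996 in PBS and 4.117, 4.290 and 4.502 in KA, had -0.46 (SE 0.130, adjusted p = 0.0232), with PBS library #1 within the KA range. Among all genes 12.2% were lower and 15.5% higher, against 3 and 0 of the 9 members. Values were lower without overlap for 1 member, Sptbn1, and for 17.5% of all genes. Dbn1, the member called against AAV control, differed by -0.10 (SE 0.111, adjusted p = 0.544) from PBS. No member was called without KA input #1, KA input #2, PBS input #2 or PBS input #3, beside 5.83% to 7.01% of all genes, and 3 were called without either KA input #3 (21.2%) or PBS input #1 (8.89%). The neuron markers were lower in these inputs, with median log2 differences of -0.50 against AAV control (0 of 7 passed the test) and -0.58 against PBS (5 of 7 lower), and all 5 microglia markers rose in both comparisons (medians 1.85 and 1.81). The astrocyte markers, which like the members are enriched in the IP, were higher in these inputs, with medians of 0.84 (4 of 7 higher, 0 lower) and 0.78 (6 of 7 higher, 0 lower). The part of these cell types in the member values was not tested.

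No member differed detectably between PBS and AAV control. Between PBS and AAV control, 0 members and 0 genes passed the adjusted p (edgeR quasi-likelihood test), and 0 of 9 members in the IP had an unadjusted p under 0.05, beside 10.8% of all genes. In the IP the log2 differences ran from -0.54 (SE 0.403, Dbn1) to 0.33 (SE 0.560, Sptbn1). In the input they ran from -0.48 to 0.21, and Dbn1, the lowest, was the 1 member with an unadjusted p under 0.05 (SE 0.121, adjusted p = 0.561, edgeR), beside 8.25% of all genes. Ppp1r9a had the highest value. DESeq2 called 16 genes in the IP and 30 in the input and limma-voom 0 in both, none of them a member. Without AAV control input #3, 2 members were called lower in the input, Dbn1 and Ank3, beside 18.5% of all genes. Standard errors in the IP were large because the PBS libraries spread widely: PBS IP #3 was the highest of its group for 9 of 9 members and PBS IP #1 the lowest for 7, and the highest library was between 2.54 (Myo5a) and 6.35 (Sptbn1) times the lowest. In the KA IP this factor was between 1.24 and 1.61.

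Levels per length (FPKM) can be ordered within a group. In the AAV control IP Sptan1 (mean 248.3 FPKM), Dbn1 (168.3), Sptbn1 (143.2) and Ppp1r9a (118.9) formed an upper tier, in which neighbours overlapped in their libraries. A gap that no library bridged separated them from Ank2 (31.02), Myo5a (28.30), Sptb (24.57) and Myh10 (21.67), and Ank3 was last (8.755). The same 4 genes led in the PBS IP, where Dbn1 was at place 4, and in the KA IP, where they were at 25.47 to 39.35 FPKM. In the KA IP Sptb was at place 8, now also below Myh10, and its libraries (mean 3.863) overlapped those of Ank3 (3.561). In the inputs Dbn1 led (21.67 in AAV control, 14.33 in KA) and Sptb was last (2.746 and 1.674), and Sptan1 was at place 3 or 4. By mean FPKM over all genes Sptan1 was at place 169 in the AAV control IP and at place 3478 in the input.

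Long RNAs as a class were lower in the KA IP, and most members are long. Apart from Dbn1 (percentile 57.0 of exon length) they lay between percentiles 92.3 (Myh10) and 99.9 (Ank2). Over all genes the longest 10% had a median log2 KA difference of -0.30 against AAV control and -0.39 against PBS in the IP. Measured from the median of genes of like length, Sptan1 was at -2.31, Sptb at -2.32, Ppp1r9a at -1.85 and Sptbn1 at -1.66 against AAV control, places 2, 1, 3 and 4 from the lowest of the 970 longest genes. Dbn1 was at -2.12, place 5 in its own length class, while Myh10 was at -0.52, place 133. Against PBS the same 4 genes were at places 2 to 5 of the 981 longest (Sptb at -2.18, Sptan1 at -2.04), Dbn1 was at -1.57, place 26, and the myosins lay closer to genes of like length, Myo5a at -0.49 (place 191) and Myh10 at -0.16 (place 390). The choice of the set rested on lower KA IP values, so low places here were favoured by it. The part of length in the member values was not tested.

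Genes around the members were taken from 8 lists of spectrin, ankyrin and actomyosin partners (119 genes, 96 tested in KA against AAV control in the IP). Of these 16 were lower and 22 higher by the edgeR test, beside 9.74% and 10.4% of all tested genes. The lists did not share one direction. Sptbn4 (beta-IV spectrin) was at 6.146, 6.682 and 4.383 FPKM in the AAV control IP and at 1.794, 2.349 and 1.870 in the KA IP. Its log2 fold change was -1.45 (SE 0.187). For Sptbn4, counted among the 16 lower, this is a description, since spectrin RNAs in these libraries gave the choice of the set its reason. Sptbn5 (beta-V spectrin) and Ank1 (the ankyrin first known from red blood cells) did not pass the filter in any comparison, with mean levels of at most 0.0423 and 0.832 FPKM in a group.

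Of the plakins and other large linkers, giant proteins that tie filament systems together, 5 of 14 fell and 0 rose. They were led by Plec (plectin, -1.73, SE 0.183, adjusted p = 0.00104), Macf1 (-1.58, adjusted p = 0.00598) and Dmd (dystrophin, -1.17, adjusted p = 0.00407). Dst fell by 1.54 on the log2 scale. Of the spine actin scaffold, 5 of 24 fell and 5 rose. Those that fell were Actn2 (-1.67), Ppp1r9b (spinophilin, the paralog of Ppp1r9a, -1.54), Homer2 (-1.31), Lima1 (-1.27) and Shank2 (-0.67). Synpo (synaptopodin, 1.69, adjusted p = 0.00117), Cttn (cortactin, 1.36, adjusted p = 0.00141) and Homer1 (1.67, adjusted p = 0.00265) rose. Dst, Actn2, Ppp1r9b, Lima1 and Shank2, and Scn1a below, were named after their values were seen.

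At the junction of spectrin with actin, 1 of 18 genes fell and 6 rose. Epb41l2, a protein 4.1 gene, fell by 0.73 on the log2 scale (adjusted p = 0.0252), while the tropomyosins Tpm1 (0.96, adjusted p = 0.00979) and Tpm4 (0.74, adjusted p = 0.0130) rose. Among the membrane partners of ankyrin and spectrin 1 of 15 fell (Scn1a, a sodium channel gene, -0.88) and 5 rose, among them Atp1b1 (1.79, adjusted p = 0.00102), a subunit of the sodium pump. The neuron markers had a median log2 difference of 0.92 in this comparison (3 of 7 higher, 0 lower). The part of neuronal RNA in these values was not tested. In the non-muscle myosin II list, that of Myh10, 0 of 10 fell and 3 light chain genes rose, Myl12a (1.12), Myl6 (0.89) and Myl12b (0.77), with adjusted p-values of 0.0142, 0.0418 and 0.0418. Among unconventional myosins and adaptors, the list of Myo5a, Myo9a fell (-0.66, adjusted p = 0.0465) and Myo1e (1.07, adjusted p = 0.0111) and the light chain Dynll1 (0.99, adjusted p = 0.0413) rose, of 8 tested. Of calpain genes, Capns1 (the small subunit) rose by 1.53 (adjusted p = 0.00246) and Capn7 fell by 0.88 (adjusted p = 0.0383), of 5.

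**Figure D5:**
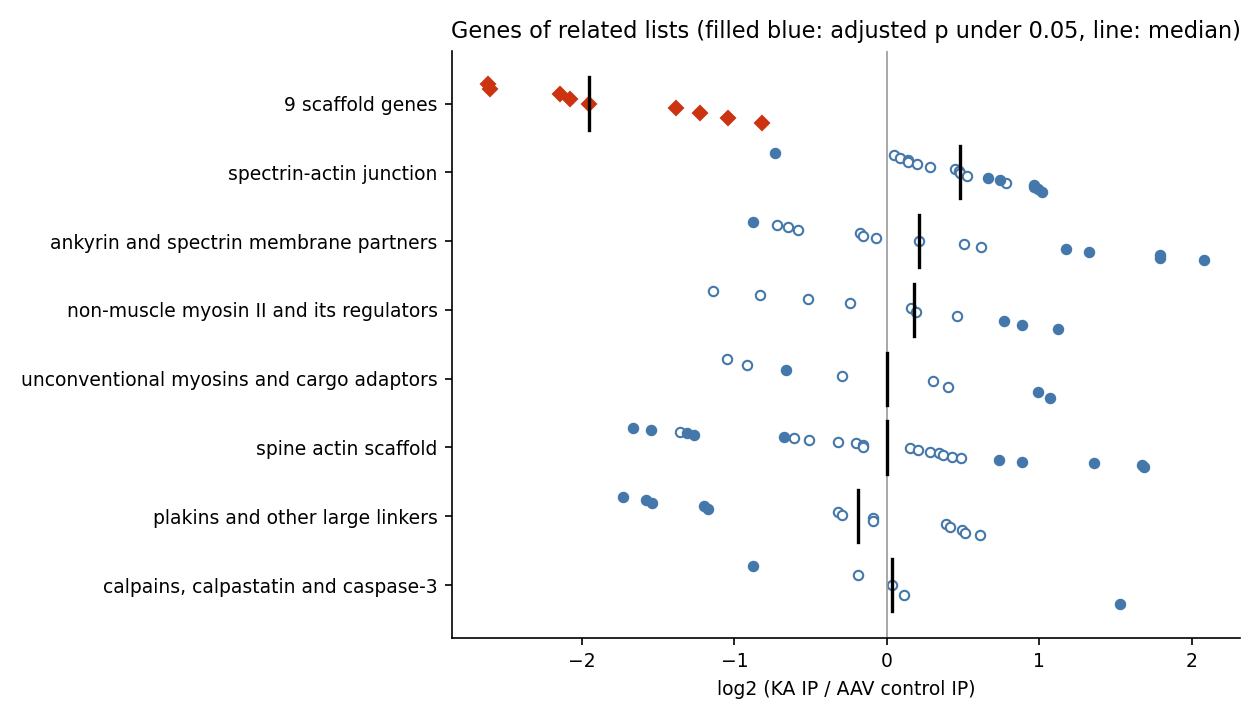
Log2 fold change of KA against AAV control in the IP for the 9 scaffold genes (red diamonds, not tested) and for the tested genes of 7 lists of partners (circles, filled where the adjusted p is under 0.05), with the median of each list as a line. The 9 genes have a median of -1.96, the spectrin-actin junction 0.48 and the plakins and other large linkers -0.19.

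IP enrichment was uneven over these lists as well. In AAV control 25 of 92 tested partners were higher in the IP and 34 lower, beside 19.4% and 20.3% of all genes. Sptbn4 was enriched (log2 1.12, SE 0.171), less than the member spectrins. Of the membrane partners 11 of 15 were lower in the IP. In the input, KA against AAV control gave 5 lower and 3 higher calls among 95 tested partners, beside 0.944% and 3.54% of all genes. Those lower were Itpr1 (-0.96), Homer2 (-0.90), Myh14 (-0.83), Wasf1 (-0.77) and Add2 (-0.67), and those higher Myl12a (1.18), Epb41l2 (1.01) and Tpm4 (0.90), with adjusted p-values between 0.00623 and 0.0379.

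The RNAs whose log2 CPM was most like that of the spectrins over the 18 libraries included other cytoskeletal RNAs. Near Sptan1 were Mprip, which encodes a myosin phosphatase partner (Pearson r = 0.990 among 9001 genes outside the set), Plec (0.982), 4632427E13Rik (0.976) and Peg3 (0.974), and near Sptb were Plec (0.974), Mccc1 (0.967), Gm6145 (0.964) and Hnrnph3 (0.964). Between Sptan1 and the other members r ran from 0.842 (Ank3) to 0.985 (Ppp1r9a). The libraries fall into IP and input and share homogenates in pairs, so these values describe the order only. Mprip had a log2 IP to input difference of 3.53 (SE 0.271) in AAV control and a KA difference of -1.60 (SE 0.286) in the IP and -0.21 (SE 0.140) in the input.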

How the data were processed

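RNA of 9 IP and 9 input samples (3 per condition) was analysed from the deposited files. Per the labels, the authors aligned reads to mm10 with STAR, counted them with featureCounts and used edgeR; versions, annotation, strandedness and the handling of multi-mapped reads are not given in the sources used here. The deposited counts per gene symbol are whole numbers without normalization, and the deposited FPKM equal count over library total and a fixed length for 16094 of 16124 testable genes (within 1%). Comparisons used edgeR 4.0.16 in R 4.3.3 (quasi-likelihood test, TMM, genes with FPKM above 1 in all compared libraries, Benjamini-Hochberg adjustment over all genes tested at 0.05), with the libraries compared only; SE is the fold change over the root of F. The fit was also run on simulated counts of independent libraries without a run effect. That cannot show its error rate where runs differ. Alternatives used limma 3.58.1 (voom), DESeq2 1.42.0 and the settings named in the closing section. The interaction compared the KA effect in IP and input. Correlations used log2 CPM (prior count 2). Named are the members, per list up to 3 genes with the smallest adjusted p under 0.05 in KA against AAV control (IP and input each), the other spectrins and ankyrins, and the 5 genes most like Sptan1 and Sptb; some genes that this rule names are not reported here. Members and lists were chosen with earlier results of these data known.

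IP and input of one number come from the same homogenate (residual correlations of 0.155 to 0.751). The main IP against input and interaction fits did not pair them. Residuals of same-numbered KA and AAV control libraries, which share a run, correlated at 0.348 to 0.551, so that these numbers pair the samples; the main comparisons were fitted without this block, and the blocked count is given where it differs. Residuals of same-numbered KA and PBS libraries correlated at -0.294 to 0.106 and do not pair them. Fold changes in the text are on the log2 scale unless given as fold, and p-values measure the spread between pooled samples. Within the KA and AAV control groups this spread includes the difference between runs.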

Additional observations from a re-analysis of the deposited data

Results flagged for a closer look

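For 10 partner genes named above, the KA effect against AAV control differed between IP and input by the interaction term of the edgeR quasi-likelihood test (adjusted p under 0.05), given as the log2 effect in the IP minus that in the input. Of all 9180 tested genes, 5.99% had a negative and 7.19% a positive difference by this test. The partners were named mostly for small p-values in the same libraries, so such differences were favoured by the choice. For Sptbn4 the value is a description, since spectrin RNAs in these libraries gave the choice of the members its reason. This fit did not pair the IP and input of a homogenate. The difference was negative for Epb41l2 (-1.72, SE 0.212, adjusted p = 0.000551), Plec (-1.37), Macf1 (-1.33), Sptbn4 (-0.88) and Dmd (-0.87). Epb41l2 moved in opposite directions, by -0.73 in the IP and 1.01 in the input. It was positive for Atp1b1 (1.87, SE 0.265, adjusted p = 0.000966), Synpo (1.77), Cttn (1.65), Homer1 (1.39) and Add2 (1.14). Add2 was at 0.45 in the IP and -0.67 in the input. The neuron markers, with 6 of 7 differences positive past the test and a median of 1.36, and the astrocyte markers, with 5 of 7 negative and a median of -1.30, moved with the positive and the negative group, and their part in these values was not tested.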

How the results depend on the processing

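Under other settings 110 summary values stayed within the spread or within 1.5 times the count and 24 did not. The latter are given here, and their cause was not tested. In KA against AAV control, input, 1 member was called, 2 without the FPKM filter, 2 with the replicate block, 3 with the run covariate, 8 in the first run only, 0 with all 18 libraries in one fit and 0 to 4 when single libraries were left out. In KA against PBS, input, 3 were called, 0 with all 18 libraries and 0 to 3 without single libraries, and in PBS against AAV control, input, 0, and 0 to 2. The replicate block changed no other count of called members (3, 0 and 0). Recentring on length moved the median log2 difference of the members in KA against AAV control, IP, from -1.96 to -1.66. The median IP to input difference in KA (1.42) was 1.51 without the filter and 1.51 after recentring, and 1.35 to 1.47 without single homogenates; in PBS it was 2.51 to 3.21, and the KA effect in IP minus input with the PBS baseline -1.78 to -1.12, the smaller sizes without PBS #3. Single genes changed sign near 0. Without single libraries Myh10 ran from -0.13 to 0.088 against AAV control in input (-0.027 without the filter, -0.052 in the first run) and from -0.093 to 0.072 against PBS, Ank2 from -0.14 to 0.045 and from -0.06 to 0.17, and Sptbn1 in the PBS against AAV control IP from -0.14 to 0.76. Groups of 3 libraries and the uneven PBS IP libraries limit the precision.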
